A study of Homo sapiens with 6 samples.

Results

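The genes described here are the 237 protein-coding genes on human chromosome 19 whose symbol is ZNF followed only by a number. They were found by name and by position among the 44591 genes that the authors counted, of which 19233 are protein-coding. Another 236 ZNF genes of the same kind lie on other chromosomes and served as the reference. Names with a letter after the number and the zinc-finger names ZFP, ZSCAN, ZIK and ZIM were left out (22 protein-coding genes on chromosome 19). The samples were 3 untreated libraries and 3 libraries treated with r-CRMP2, human recombinant collapsin response mediator protein 2, a cytosolic protein known for binding tubulin. All 6 came from A2780, a human ovarian cancer cell line labelled wild type and grown in serum-containing DMEM. The treated cells received 40 ng/ml r-CRMP2 in the medium, and all 6 libraries are labelled 48 h. Polyadenylated RNA was sequenced, and the files give 21888530 to 25711353 counts per library. Nothing in the labels says that the replicates were separate cultures, so the p-values measure only the spread between these libraries, which may be technical.

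Most ZNF genes on chromosome 19 encode DNA-binding proteins with tandem C2H2 zinc fingers, each finger reading a few bases of DNA. Many also carry a KRAB domain, which binds TRIM28 (KAP1). TRIM28 in turn brings the histone H3 lysine 9 methyltransferase SETDB1, HP1 proteins and the NuRD complex to the bound site, and many of the bound sites lie in transposable elements. These genes arose by repeated tandem duplication and stand in runs of similar copies, which are often transcribed at low levels.

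The epithelial keratins KRT8, KRT18 and KRT7 were abundant in all 6 libraries, whereas WT1 and CDH1 had at most 3 and 5 counts in a library. The summed level of 8 ovarian epithelial markers was 3190 to 3266 CPM (counts scaled to a common library total with TMM factors) in the untreated and 3203 to 3468 CPM in the r-CRMP2 libraries. The 7 fibroblast markers summed to 528 to 593 CPM against 458 to 473 CPM, but they did not fall together. The lower sum was mostly COL1A1 (mean 419 against 316 CPM), and PDGFRB was also lower (log2 fold change -0.41). COL1A2 (0.35), DCN (0.29), LUM (0.53) and THY1 (0.17) had positive log2 fold changes, and FAP had at most 9 counts. The 4 leukocyte markers summed to 21.7 to 26.2 CPM against 72.0 to 78.1 CPM, which was almost wholly CD68, a lysosomal protein, while PTPRC and CD3E had at most 4 and 2 counts. The 3 endothelial markers summed to 6.28 to 7.02 CPM against 1.77 to 2.26 CPM, which was mostly CDH5 (mean 5.29 against 1.35 CPM). The part of these markers in the results below was not tested.

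As a group, the chromosome 19 ZNF genes were lower in the r-CRMP2 libraries. Of the 237 genes, 155 had enough counts to be tested, and 38 of these fell and 2 rose at an adjusted p below 0.05 and a log2 fold change beyond 1 in size. Here and below, p-values are those of the quasi-likelihood test of edgeR, adjusted by the method of Benjamini and Hochberg over all 16222 genes tested. SE is the standard error of the difference in mean log2 CPM between the groups, computed apart from that test. The calls made up 24.5% of the tested members lower, against 8.86% of all genes tested, and 1.29% higher, against 5.12%. By the adjusted p alone, 83 members were lower (53.5%, against 30.1% of all genes) and 16 were higher (10.3%, against 28.2%), and 56 passed in neither direction. In 88 members all 3 r-CRMP2 libraries were below all 3 untreated libraries, and in 21 they were above; over all genes tested these shares were 33.3% and 30.9%. The median log2 fold change of the tested members was -0.51, with quartiles of -1.01 and -0.01 and a range of -2.63 to 1.39, and 118 of the 155 were negative. The median of all genes tested was -0.03. It moved to -0.34 when libraries were scaled by their totals alone, and with that scaling the median of the members was -0.82 and 38.1% of them were lower past both thresholds, against 15.7% of all genes. In bulk RNA, fewer cells of a type and less RNA per cell cannot be told apart.

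Summed over the 237 genes, the share of all counts was 0.153%, 0.154% and 0.151% in untreated replicates 1, 2 and 3. In r-CRMP2 replicates 1, 2 and 3 it was 0.121%, 0.105% and 0.110%. The r-CRMP2 libraries were all below the untreated ones. On the TMM-scaled level the separation was narrower, with 1394, 1372 and 1348 CPM in the untreated and 1320, 1193 and 1232 CPM in the r-CRMP2 libraries. The lowest untreated and the highest r-CRMP2 library differed by less here than in the share of counts. Of the 237 genes, 220 to 222 had at least 1 count in an untreated library, and 218, 214 and 195 had one in r-CRMP2 replicates 1, 2 and 3.

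The ZNF genes of other chromosomes moved in the same direction. Of 199 tested, 43 fell (21.6%) and 2 rose (1.01%) past both thresholds, with a median log2 fold change of -0.30. By the adjusted p alone 94 were lower and 32 higher. Protein-coding genes outside the ZNF names differed from both sets, with 6.96% of 12451 lower, 3.46% higher and a median of -0.01. Protein-coding genes of chromosome 19 without a zinc-finger name had 5.26% of 742 lower, 4.99% higher and a median of 0.05, which was -0.26 with library size alone. The share that fell was thus higher in both ZNF sets than in either set without the name, and no test of the difference between the sets was made.

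Chromosome 19 ZNF genes were scarce, so the sets were also compared within broad classes of raw count. The median of the mean raw count was 108.2 over the tested members and 246.7 over the tested ZNF genes elsewhere. Per length, the median level in the untreated libraries was 3.28 TPM for the members, 6.28 TPM for the other ZNF genes and 17.5 TPM for other protein-coding genes. Among genes with a mean raw count of 10 to under 100, 23 of 68 members (33.8%) were lower, against 33.9% of 56 other ZNF genes and 19.2% of 2084 other protein-coding genes. Among those with 100 to under 1000, 14 of 81 members (17.3%) were lower, against 20.5% of 117 other ZNF genes and 6.47% of 5797 other protein-coding genes. Counts still differed inside these classes, so they were not matched. In the middle class the median of the mean raw count was 178.3 in members, 309 in other ZNF genes and 428 in other protein-coding genes. In the lower class these medians were 52.6, 59.2 and 35.8. In the share past both thresholds both ZNF sets were close within either class, and both stood above the other protein-coding genes. By the adjusted p alone 61.8% of members, 51.8% of other ZNF genes and 30.4% of other protein-coding genes were lower in the lower class. In the middle class these shares were 49.4%, 52.1% and 38.7%. The medians in the lower class were -0.76, -0.67 and -0.30 on the log2 scale, and in the middle class -0.29, -0.29 and -0.10, for members, other ZNF genes and other protein-coding genes. Of the 4 members with 1000 counts or more none fell past both thresholds, and their median log2 fold change was 0.30 (-0.0091 with library size alone), against 0.23 in 26 other ZNF genes and 0.17 in 4485 other protein-coding genes. Across the 155 tested members, which share the 6 libraries and are not independent, Spearman's rho between mean raw count and log2 fold change was 0.47; it was 0.44 over the other ZNF genes and 0.35 over the other protein-coding genes.

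**Figure D1:**
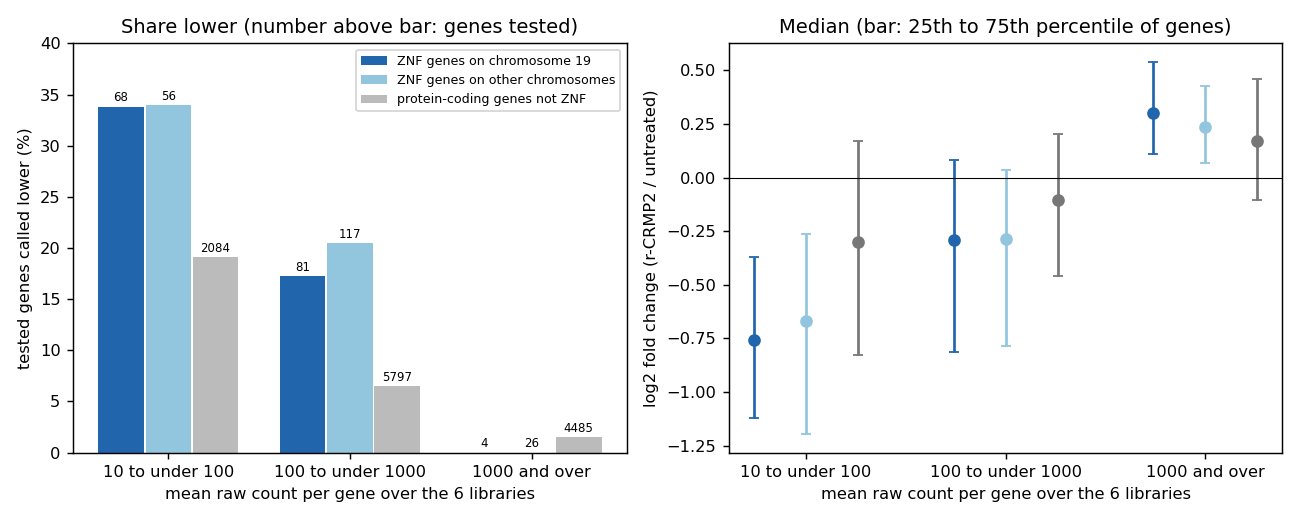
Left, percent of tested genes lower past both thresholds; right, median log2 fold change (bars from the 25th to the 75th percentile of genes), by mean raw count. Chromosome 19 ZNF genes lie close to the other ZNF genes in each class, at 33.8% and 33.9% in the lowest class shown, above the 19.2% of other protein-coding genes.

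The low-count filter limits what these shares cover. The 82 members not tested had a mean raw count of 0.167 to 10.5, with a median of 1.67, and 14 members averaged under 1 count. None was at 0 in every library. A gene that was scarce in the r-CRMP2 group passed the filter only through its untreated counts. Without the filter 42 of 237 members were lower past both thresholds (17.7%, against 5.17% of all genes then tested). With at least 10 counts required in every library 30 of 141 were (21.3%, against 6.54%). The groups did not overlap in any of the 38 members that fell. Passing both thresholds already favours separated groups, so this is no separate support. Of these 38, 24 had a mean raw count of at least 50. The other 14 had log2 fold changes of -2.63 to -1.08. The most abundant member that fell had a mean raw count of 333.7.

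The largest falls among members with at least 50 mean counts were in ZNF302 and ZNF181, which lie next to each other. The largest falls and rises were picked from members without overlap between the groups, so their separation is no separate support. ZNF302 (chr19:35168544-35177302, hg19, plus strand) had 164, 182 and 182 counts in untreated replicates 1, 2 and 3, and 47, 20 and 37 counts in r-CRMP2 replicates 1, 2 and 3. On the TMM-scaled level these were 5.90, 7.42 and 6.65 CPM and 2.20, 1.01 and 1.61 CPM. All r-CRMP2 libraries were below all untreated ones, and r-CRMP2 replicate 2 was the lowest. The mean fell from 6.66 ± 0.760 to 1.61 ± 0.594 CPM (SD, n = 3), 4.10-fold lower, with a log2 fold change of -2.03 (SE 0.32, adjusted p = 1.44e-07). ZNF181 had 144, 122 and 128 untreated counts and 33, 20 and 25 counts after r-CRMP2, with a log2 fold change of -2.02 (SE 0.18, adjusted p = 1.25e-07). Its groups did not overlap either.

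The other 6 large falls lay in 4 more places along the chromosome. ZNF607 had 6.94, 5.70 and 5.04 CPM untreated and 1.54, 1.57 and 1.48 CPM after r-CRMP2, a log2 fold change of -1.94 (adjusted p = 7.60e-08). ZNF45 had 8.41, 7.78 and 8.77 CPM untreated and 2.95, 1.82 and 1.92 CPM after r-CRMP2, a log2 fold change of -1.90 (adjusted p = 3.18e-08). In both genes the lowest untreated library was well above the highest r-CRMP2 library. The ZNF45 row overlaps an antisense gene, and the library kit does not mark strand, so its counts can hold reads of that gene. ZNF611, ZNF480 and ZNF28 belong to 1 run toward the end of the long arm, with log2 fold changes of -1.71, -1.70 and -1.55. ZNF28 had 6.15, 6.07 and 5.52 CPM untreated and 2.39, 1.16 and 2.44 CPM after r-CRMP2, of which replicate 2 was the lowest. ZNF416, farther along the same arm, had a log2 fold change of -1.49 (adjusted p = 2.28e-05). Over all alternatives the log2 fold changes of these 8 genes stayed between -2.34 and -1.28.

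**Figure D2:**
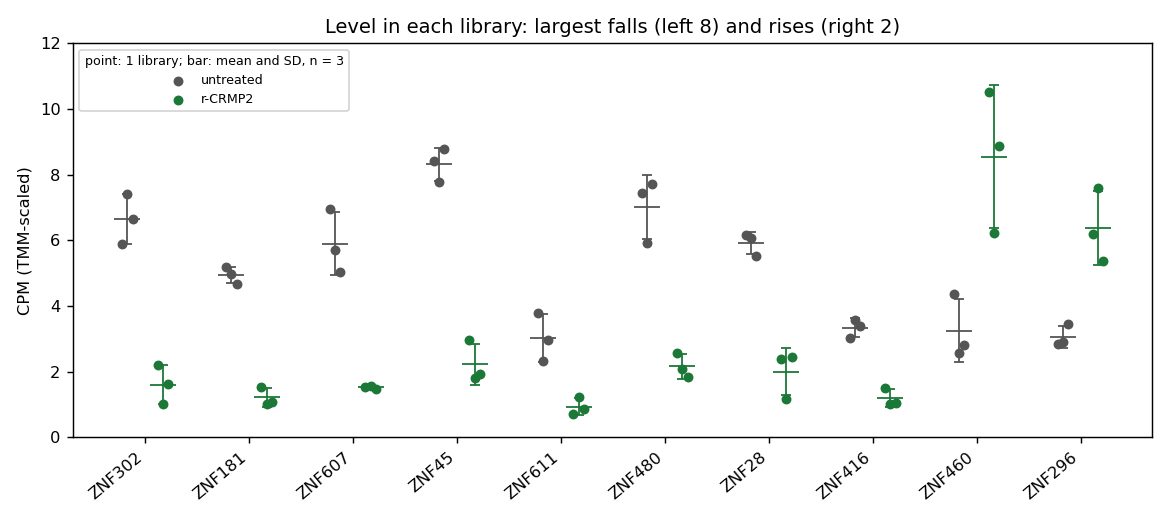
TMM-scaled CPM in each library (points) with mean and SD (bars, n = 3) for the 8 largest falls and the 2 rises past both thresholds with a mean raw count of at least 50. The genes were picked from members without overlap between the groups, so their separation was a condition of choice. ZNF302 fell from 6.66 to 1.61 CPM and ZNF460 rose from 3.24 to 8.54 CPM.

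Only ZNF460 and ZNF296 rose past both thresholds. ZNF460 (chr19:57791335-57805436, hg19, plus strand) had 121, 63 and 77 counts in the untreated and 225, 123 and 204 counts in the r-CRMP2 libraries. These were 4.35, 2.57 and 2.81 CPM and 10.5, 6.22 and 8.88 CPM, so the groups did not overlap, although untreated replicate 1 and r-CRMP2 replicate 2 came close to each other. The log2 fold change was 1.39 (SE 0.32, adjusted p = 9.10e-06). A long noncoding RNA gene overlaps ZNF460 on the opposite strand and 11.9% of its 100-base transcript windows also occur in another gene, so its counts are uncertain. ZNF296 had 2.84, 2.89 and 3.44 CPM untreated and 6.18, 7.58 and 5.36 CPM after r-CRMP2, a log2 fold change of 1.05 (SE 0.17, adjusted p = 3.48e-05). It overlaps GEMIN7 on the opposite strand. The ZNF296 change fell under the fold threshold when untreated replicate 1 (0.9994) or r-CRMP2 replicate 2 (0.92) was left out and with library size alone (0.74), and it passed the adjusted p in each.

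The 250 bases before the annotated start are shown for the largest fall and the largest rise among members with at least 50 mean counts, since these genes moved in opposite directions. They are from RefSeq on GRCh38.p14, not on the hg19 build of the counts, and read 5′ to 3′ on the plus strand, at chr19:34677428-34677677 for ZNF302 and chr19:57279732-57279981 for ZNF460. Capitals mark the core of the hypoxia response element (ACGTG or GCGTG on either strand), which ZNF302 lacks in this window.
ZNF302: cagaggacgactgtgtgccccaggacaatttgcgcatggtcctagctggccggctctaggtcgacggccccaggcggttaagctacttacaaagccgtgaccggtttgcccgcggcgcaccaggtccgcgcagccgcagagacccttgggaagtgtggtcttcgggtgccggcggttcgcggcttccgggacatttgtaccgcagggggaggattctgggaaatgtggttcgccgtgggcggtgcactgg
ZNF460: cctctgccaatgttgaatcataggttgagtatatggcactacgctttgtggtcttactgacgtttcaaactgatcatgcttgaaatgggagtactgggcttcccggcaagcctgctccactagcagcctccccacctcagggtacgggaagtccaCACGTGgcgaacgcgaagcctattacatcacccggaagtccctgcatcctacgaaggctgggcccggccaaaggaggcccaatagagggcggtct
ZNF302 has 24 CpG dinucleotides in this window and ZNF460 has 12. In ZNF460 the capitals form a palindrome that reads as the core on both strands. Each window also holds 1 match to the ETS core CCGGAAG and 1 to the GC box GGGCGG, on either strand.

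Promoter windows of 250 bases before to 50 bases after the start were found in RefSeq for 206 of the 237 members, and the same letters were counted in all 27305 windows. The ETS core CCGGAAG was in 43.7% of the members, 37.7% of the other ZNF genes and 10.7% of all windows. The GC box GGGCGG was in 69.4%, 60.2% and 44.6%. The median number of CpG was 20, 24 and 14. Both motifs were thus more frequent in ZNF windows than in all windows, on chromosome 19 and elsewhere. Of the 29 members that fell and had a window, 16 (55.2%) held the ETS core, against 41.4% of the 111 tested members that did not fall past both thresholds. The hypoxia response element core was in 14 of the 29 (48.3%), 64.9% of the 111, 64.4% of the other ZNF genes and 48.4% of all windows. These matches are letters in a window and do not show binding.

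Along the chromosome the members formed 16 runs when neighbours up to 1 Mb apart were joined, 5 of them of a single gene. In each of the 9 runs with at least 5 tested members the median log2 fold change was negative, from -2.02 to -0.17. On the short arm 9 of 46 tested members (19.6%) fell past both thresholds and none rose, with a median of -0.34. On the long arm 29 of 109 (26.6%) fell and 2 (1.83%) rose, with a median of -0.59. Over all genes tested 8.86% fell and 5.12% rose. Falls therefore occurred on both arms.

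**Figure D3:**
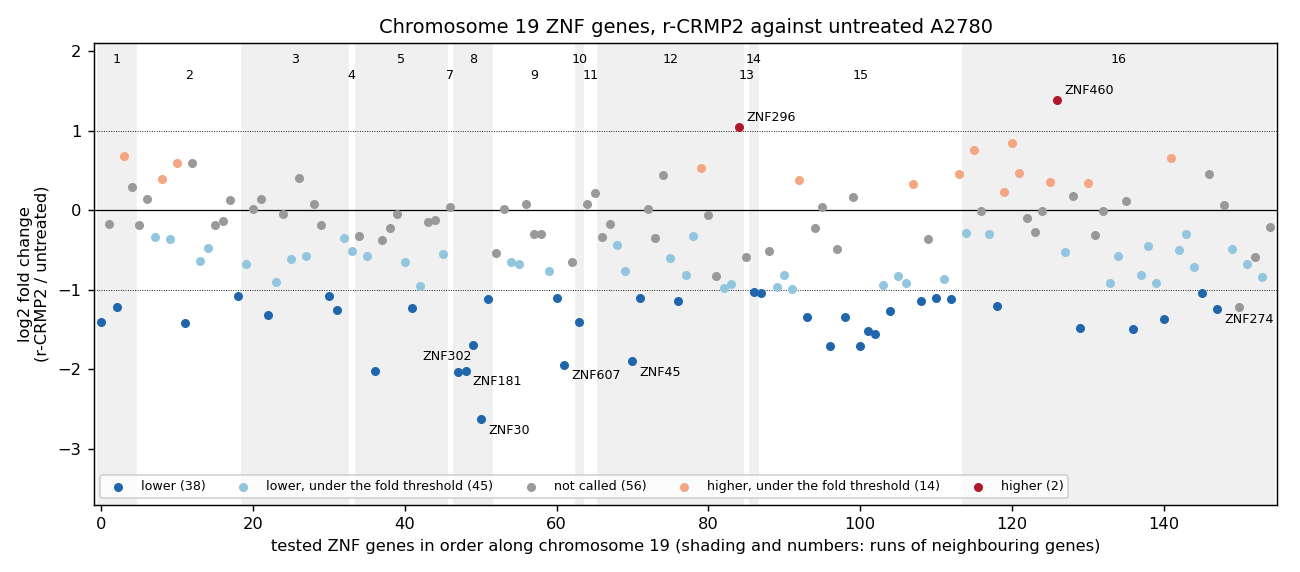
Log2 fold change of the 155 tested members in their order along chromosome 19; shading and numbers mark the runs, dotted lines a log2 fold change of 1 in either direction, and run 6 has no tested member. Points below 0 occur in nearly every run, and all members of run 8 (ZNF302, ZNF181, ZNF599, ZNF30 and ZNF792) are lower.

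The run from ZNF302 to ZNF792 (chr19:35168544-35454953, hg19) was the only one of these 9 in which every listed member was tested and fell past both thresholds. Besides ZNF302 and ZNF181 it holds ZNF599, ZNF30 and ZNF792, which were named after their values were seen. ZNF30 had 79, 71 and 67 counts untreated and 6, 9 and 13 counts after r-CRMP2, a log2 fold change of -2.63 (adjusted p = 5.15e-07), the most negative among the tested members. ZNF792 had 99, 64 and 99 counts untreated and 37, 27 and 33 counts after r-CRMP2, a log2 fold change of -1.11 (adjusted p = 0.000338). ZNF599 had 16 to 19 counts untreated and 4 to 5 counts after r-CRMP2, a log2 fold change of -1.69 (adjusted p = 0.00387). In none of the 5 did the groups overlap, as in all 38 members that fell, so this is no separate support. ZNF599 and ZNF30 had low counts after r-CRMP2 and passed the low-count filter through their untreated counts, so that all 5 fell is a description and rests in part on that filter. At most 3.43% of the transcript windows of these genes occur in another gene, and no other tested protein-coding gene lies between them.

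The run from ZNF175 to ZNF331 (chr19:52074490-54083523) held the most falls, with 11 of 27 tested members lower past both thresholds, none higher, and a median log2 fold change of -0.94. The members of this run that fell include ZNF480, ZNF611 and ZNF28. ZNF331, at its far end, went the other way and is described below. Neighbouring copies can share reads here: 99.5% and 99.1% of the transcript windows of ZNF320 and ZNF468 occur in another gene, so their log2 fold changes of -1.27 and -0.94 cannot be assigned to 1 gene; this pair was named after its values were seen. The run from ZNF628 to ZNF446, the last on the chromosome, had 6 of 41 tested members lower (14.6%) and 1 higher (2.44%) past both thresholds. Over all genes these shares were 8.86% and 5.12%. By the adjusted p alone 20 were lower (48.8%, against 30.1% of all genes) and 8 higher (19.5%, against 28.2%). In the run from ZNF101 to ZNF254, next to the centromere on the short arm, 21 of 33 members were not tested. Of the 12 tested, 2 fell past both thresholds (16.7%, median -0.46).

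Other protein-coding genes that lie between the members were more often higher than lower by the adjusted p, an order that turned with library size alone. Of 76 tested, 2 were lower (2.63%, against 8.86% of all genes) and 3 higher (3.95%, against 5.12%) past both thresholds. By the adjusted p alone 14 were lower (18.4%, against 30.1%) and 30 higher (39.5%, against 28.2%). The median log2 fold change was 0.14. With library size alone 29 were lower and 13 higher and the median was -0.17, against -0.82 in the members. These neighbours had more counts, with a median of the mean raw count of 916. In 6 of the runs with at least 5 tested members there were tested neighbours, and in each the members' median was below that of the neighbours. The runs starting at ZNF653, ZNF565 and ZNF175 had only 3, 1 and 2 tested neighbours, so little rests on those medians. The run from ZNF557 to ZNF846 had medians of -0.19 in 14 members and 0.10 in 34 neighbours. The run from ZNF575 to ZNF296 had medians of -0.44 in 19 members and 0.17 in 18 neighbours. The last run had -0.30 in 41 members and 0.34 in 10 neighbours.

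**Figure D4:**
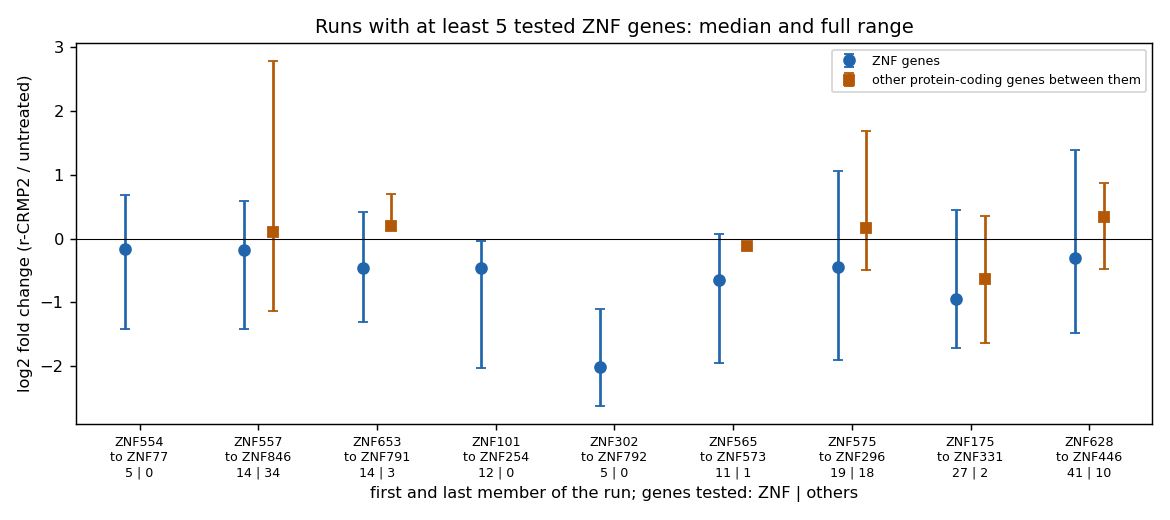
Median (marker) and full range (bar) of the log2 fold change in the runs with at least 5 tested members, for the ZNF genes and for the other protein-coding genes between them; the numbers of genes tested stand under each run. All 9 medians of the ZNF genes are below 0, and in the run starting at ZNF175 the neighbours are only 2 genes.

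The 6 members with the most counts did not move together. ZNF146 (OZF), a protein made almost wholly of zinc fingers without a KRAB domain, had 57.3, 50.4 and 52.3 CPM untreated and 56.7, 52.6 and 53.2 CPM after r-CRMP2, with overlapping groups and a log2 fold change of 0.02 (adjusted p = 0.803). ZNF358 had a log2 fold change of 0.14 (adjusted p = 0.101). Both were negative when libraries were scaled by their totals alone (-0.29 and -0.17), and ZNF358 passed as higher without r-CRMP2 replicate 1 (0.20). ZNF579 had 33.0, 34.5 and 29.7 CPM untreated and 49.8, 57.7 and 57.2 CPM after r-CRMP2, and its log2 fold change was 0.76 (adjusted p = 1.49e-07). ZNF581 had 31.4, 31.7 and 26.1 CPM untreated and 51.3, 56.7 and 53.0 CPM after r-CRMP2, and its log2 fold change was 0.85 (adjusted p = 4.65e-08). In ZNF579 and ZNF581 the groups did not overlap, and both rose by the adjusted p without reaching the fold threshold. ZNF787 rose likewise (log2 fold change 0.46, adjusted p = 7.53e-06), whereas ZNF865 fell (log2 fold change -0.30, adjusted p = 0.00155). ZNF787, ZNF579, ZNF581 and ZNF865 all lie in the last run on the long arm. Of the 100-base transcript windows of ZNF581, 12.7% also occur in ZNF580, and 23.0% of those of ZNF358 occur in another gene. The ZNF358 row also overlaps an antisense gene, so the counts of ZNF581 and ZNF358 are uncertain.

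Among 18 members with a known role, 11 were tested, and 3 fell past both thresholds (27.3%, against 24.5% of all tested members and 8.86% of all genes). ZNF274, which brings SETDB1 to the 3′ ends of zinc-finger genes, had 478, 489 and 526 counts untreated and 192, 162 and 155 counts after r-CRMP2. The level was 17.2, 19.9 and 19.2 CPM against 8.99, 8.19 and 6.75 CPM, and the log2 fold change was -1.24 (SE 0.14, adjusted p = 3.44e-08). Every r-CRMP2 library was below every untreated one. ZNF473, a component of the U7 snRNP-dependent processing of histone pre-mRNA, had 15.5, 15.4 and 16.3 CPM untreated and 9.36, 6.22 and 7.62 CPM after r-CRMP2, a log2 fold change of -1.02 (adjusted p = 1.21e-06). ZNF175 had 7.41, 5.75 and 6.10 CPM untreated and 3.84, 2.93 and 2.66 CPM after r-CRMP2, a log2 fold change of -1.03 (adjusted p = 4.93e-05). Both lay just past the fold threshold: without r-CRMP2 replicate 2 the log2 fold changes were -0.89 for ZNF473 and -0.98 for ZNF175. They were also inside it for ZNF473 without untreated replicate 3 (-0.9977), and for ZNF175 when untreated replicate 1 (-0.92) or r-CRMP2 replicate 3 (-0.92) was left out.

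By the adjusted p alone ZNF224, a repressor of the aldolase A gene, was lower (log2 fold change -0.60, adjusted p = 0.000666), and 47.6% of its transcript windows occur in another gene. ZNF331, an imprinted gene, had 24.95, 27.3 and 27.1 CPM untreated and 38.3, 33.2 and 37.0 CPM after r-CRMP2, and rose (log2 fold change 0.45, adjusted p = 7.97e-05), which did not pass with library size alone (0.14, adjusted p = 0.163). ZNF580 rose by 0.23 on the log2 scale (adjusted p = 0.0112), which became -0.0777 with library size alone and missed the threshold when untreated replicate 2 (0.21) or r-CRMP2 replicate 3 (0.19) was left out. ZNF91, which represses SVA retrotransposons, had 3.20, 3.06 and 2.70 CPM untreated and 2.67, 2.88 and 2.57 CPM after r-CRMP2. The groups overlapped, and its log2 fold change of -0.14 did not pass (adjusted p = 0.541). ZNF350 (ZBRK1), a partner of BRCA1, had 22 to 42 counts untreated and 14 to 22 after r-CRMP2, and did not pass either (log2 fold change -0.51, adjusted p = 0.222). ZNF444 did not pass (adjusted p = 0.339), nor did ZNF808, which is needed for pancreas development (log2 fold change -0.49, adjusted p = 0.0828). ZNF808 passed as lower when untreated replicate 2 (-0.63) or r-CRMP2 replicate 1 (-0.64) was left out. With library size alone ZNF91 (-0.45, adjusted p = 0.0432), ZNF350 (-0.82, adjusted p = 0.048), ZNF444 (-0.40, adjusted p = 0.000559) and ZNF808 (-0.80, adjusted p = 0.00704) all passed as lower.

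The other 7 members with a known role were too scarce to test. ZNF93, which represses LINE-1 elements, had 4, 2 and 3 counts untreated and 0, 1 and 0 counts after r-CRMP2. ZNF382, ZNF677, ZNF671 and ZNF154, whose promoters are known to be methylated in tumours, had at most 5 counts in any library. ZNF649, a repressor of serum response element activity, had at most 3 counts, and ZNF536, a regulator of neuronal differentiation, at most 5. At this depth no difference was detectable in these genes.

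The partners of KRAB zinc-finger proteins were examined as a list of 26 corepressor genes, all of them tested. By the adjusted p alone 9 were lower (34.6%, against 30.1% of all genes tested) and 7 higher (26.9%, against 28.2%), shares close to those of all genes, with a median log2 fold change of -0.04, and with library size alone 18 were lower and 1 higher. Past both thresholds 2 were lower, FAM208A and SMARCAD1. TRIM28, the common partner of KRAB domains, had 361, 374 and 364 CPM untreated and 302, 278 and 314 CPM after r-CRMP2, and fell by 0.30 on the log2 scale (SE 0.05, adjusted p = 0.000428). Its groups did not overlap. SETDB1 had 37.8, 41.4 and 37.7 CPM untreated and 44.7, 43.6 and 46.0 CPM after r-CRMP2, a log2 fold change of 0.20 (adjusted p = 0.0207) that turned to -0.11 with library size alone and missed the threshold when untreated replicate 1 (0.18), untreated replicate 3 (0.18) or r-CRMP2 replicate 3 (0.19) was left out and without the low-count filter (adjusted p = 0.0664).

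The HUSH complex, which works with SETDB1 and the ATPase MORC2 to silence retroelements and other intronless DNA, had all of its subunits lower. FAM208A (TASOR) had 66.2, 61.5 and 65.5 CPM untreated and 25.7, 17.9 and 28.3 CPM after r-CRMP2, with no overlap and with r-CRMP2 replicate 2 the lowest. Its log2 fold change was -1.42 (SE 0.20). MPHOSPH8 had 25.9, 29.1 and 28.1 CPM untreated and 17.8, 19.7 and 17.3 CPM after r-CRMP2, a log2 fold change of -0.60. PPHLN1 (periphilin) had 53.6, 55.0 and 58.9 CPM untreated and 38.7, 39.0 and 38.4 CPM after r-CRMP2, a log2 fold change of -0.53. MORC2 had a log2 fold change of -0.30. These 4 genes were set together after their values were seen, from a list whose shares were close to those of all genes. All 4 passed the adjusted p as lower, as did 30.1% of all genes tested. A joint change of the complex was not tested.

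The other corepressor genes split. SMARCAD1, a chromatin remodeller that binds TRIM28, had 21.2, 22.5 and 24.1 CPM untreated and 11.7, 9.71 and 10.5 CPM after r-CRMP2, a log2 fold change of -1.08. EHMT1, a histone H3 lysine 9 methyltransferase, had a log2 fold change of -0.63, DNMT1, the maintenance DNA methyltransferase, -0.28 and SUV39H2 -0.32. All 4 passed the adjusted p, SUV39H2 with overlapping groups. CBX1, which encodes HP1 beta, rose by 0.48 on the log2 scale, the histone chaperone DAXX by 0.39 and the deacetylase HDAC2 by 0.36. With library size alone DAXX (0.0799, adjusted p = 0.284) and HDAC2 (0.0508, adjusted p = 0.504) no longer passed. HDAC1 (0.21), SUV39H1 (0.29) and the NuRD helicase CHD3 (0.15) also passed as higher, and these 3 were negative with library size alone (-0.10, -0.0232 and -0.16). CHD3 also missed the threshold when untreated replicate 1 (0.13), untreated replicate 3 (0.15) or r-CRMP2 replicate 3 (0.13) was left out, without the low-count filter (adjusted p = 0.123), with 10 counts asked of every library (adjusted p = 0.0571) and with the replicate block (adjusted p = 0.0741). SUV39H2 missed it when untreated replicate 2 (-0.27) or 3 (-0.24), or r-CRMP2 replicate 2 (-0.24) or 3 (-0.34), was left out, and with RLE size factors (adjusted p = 0.0524) and DESeq2 (adjusted p = 0.0778).

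**Figure D5:**
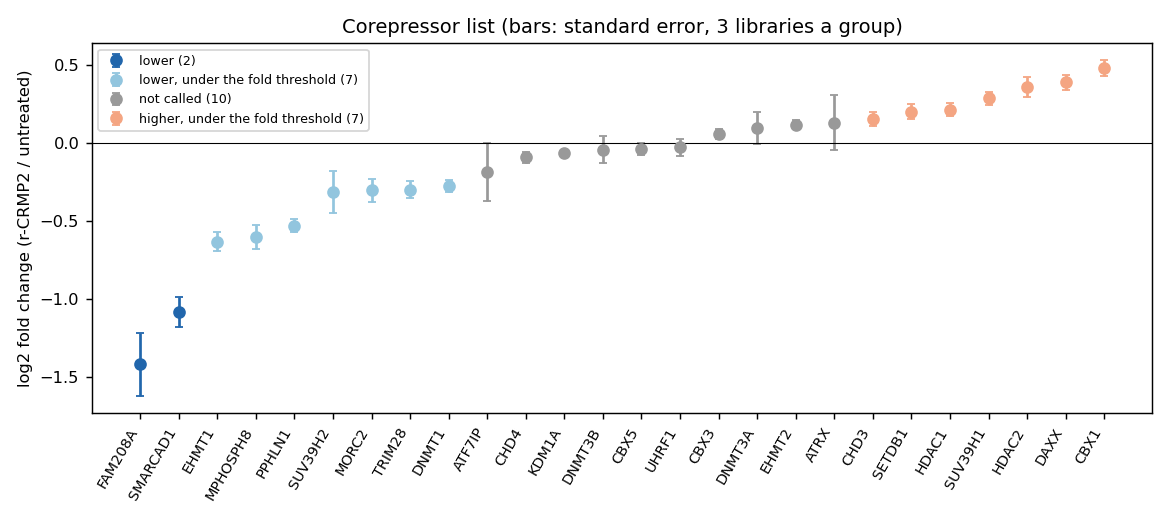
Log2 fold change with standard error (bars, 3 libraries a group) of the 26 corepressor genes, in order of size; colours give the call. FAM208A and SMARCAD1 lie past -1, and 7 genes are higher under the fold threshold.

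Sequence features of the transcripts were compared as a description. The median GC content of the tested members was 42.6%, against 46.4% in the other ZNF genes and 49.0% in other protein-coding genes. Members with GC under 40% had a median log2 fold change of -0.66 (9 of 32 lower), those with 40 to under 45% -0.51 (15 of 67), those with 45 to under 50% -0.59 (11 of 29) and those with 50% or more -0.28 (3 of 27). The medians of other protein-coding genes in the same classes were 0.00, 0.01, 0.01 and -0.03. The medians of the other ZNF genes were -0.14, -0.38, -0.36 and -0.40. The members' medians were thus lower than those of other protein-coding genes in every GC class. They were lower than those of the other ZNF genes in all but the class of 50% or more. In order of rising GC, 28.1%, 22.4%, 37.9% and 11.1% of the members fell past both thresholds. Among the other ZNF genes 7.50%, 35.3%, 18.75% and 21.1% fell, and among all genes 6.12%, 7.63%, 7.60% and 8.81%. The share that fell was thus larger in the other ZNF genes at 40 to under 45% and at 50% or more. These classes were not matched for counts. Under 40% GC the median of the mean raw count was 79.1 in members, 110.5 in other ZNF genes and 503.7 in other protein-coding genes. Within classes of raw count both ZNF sets were close in the share past both thresholds, as given above. Spearman's rho of the log2 fold change was 0.22 with GC content and -0.11 with gene length over the 155 members, which share libraries and base composition. Shared sequence was limited in most members that fell: 33 of the 38 had at most 10% of their transcript windows in another gene, as did 127 of the 155 tested members. Of the 237 members 78 overlap another listed gene, 59 of them on the opposite strand.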

How the data were processed

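Per the labels, polyadenylated RNA of 6 A2780 libraries was sequenced. The submitters' processing notes name FastQC, HISAT2, DESeq2 and the build hg19; the counting tool, annotation and strand setting are not given in the sources used here. The deposited counts are reads per gene, not normalized, and the deposited TPM follow from them and the gene lengths (largest difference 4.72e-06); counts were tested and TPM served for levels per length. Counts were fitted over all genes with edgeR 4.0.16 in R 4.3.3 (TMM, filterByExpr, quasi-likelihood test, Benjamini-Hochberg). Standard errors are from log2 CPM with a prior count of 2. Replicate libraries differed by 3.62 to 10.3 in chi-square per degree of freedom, more than sampling noise, so each was counted. Named genes were the 8 largest falls and up to 5 largest rises past both thresholds (mean raw count at least 50, no overlap between groups), the 6 members with the most counts, 18 members with a known role and corepressors past the adjusted p. The members and lists were chosen with earlier results of these data known. Shared windows were counted in GENCODE v29 transcripts. Protein sequences were not analysed here. Alternatives were DESeq2 1.42.0, scaling by RLE or by the library total, dropping the filter or asking for 10 counts in every library, the replicate block and each library left out.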

Additional observations from a re-analysis of the deposited data

How the results depend on the processing

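Scaling by library size alone moved the results most: 59 members were lower (38.1%, against 15.7% of all genes) and 1 higher past both thresholds. With this scaling the median log2 fold change of the members was -0.82, and 7 were higher by the adjusted p alone. Under it the other ZNF genes had 0 higher and a median of -0.61, the corepressor list had 18 lower and 1 higher, and CHD3 (-0.16), HDAC1 (-0.10), SETDB1 (-0.11), SUV39H1 (-0.0232), ZNF146 (-0.29), ZNF358 (-0.17), ZNF507 (-0.26), ZNF526 (-0.0918) and ZNF580 (-0.0777) changed sign. Leaving out 1 library gave 1 to 2 members higher (1 without untreated replicate 1 or r-CRMP2 replicate 2) and a median of the other ZNF genes of -0.36 to -0.25. Members lower were then 33 (20.8%, against 8.30% of all genes, without r-CRMP2 replicate 3) to 51 (32.1%, against 9.64%, without r-CRMP2 replicate 1). The uncalled log2 fold changes of ZNF146 (-0.0162 to 0.0769) and ZNF507 (-0.0852 to 0.21) then spanned 0. RLE size factors gave 38 members lower (24.5%, against 8.52% of all genes) and DESeq2 36 (23.2%, against 8.10%). Deviations of same-numbered libraries had correlations of -0.02, 0.0038 and -0.03, so the numbers did not pair the libraries. With the replicate block 39 members were lower (25.2%, against 8.86% of all genes), 37 of them shared with the main fit. Of the changes of the 50 named genes under these alternatives, 549 kept direction and side of the adjusted p threshold, 24 lost it, 14 gained it and 13 changed sign. With 3 libraries a group and members often under 100 counts, small changes were not detectable.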
